A study of Mus musculus with 3 samples.

Results

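The genes described here are 10 mouse genes that pattern the ventral forebrain or carry the hedgehog signal: the homeobox genes Dlx1, Dlx2, Dlx5, Dlx6, Gsx2 and Nkx2-1, and the hedgehog genes Gli1, Gli2, Gli3 and Ptch1. They were chosen by symbol, with earlier results of these data known. Of the 10, 9 are among the 16428 genes that peaks of the Smad3 or the JMJD3 list name as closest (8 in both lists, Dlx5 in Smad3 alone), and Nkx2-1 is named in neither. Every peak with its midpoint within 50 kb of their transcription start sites was added. Chromatin was immunoprecipitated from wild-type neural stem cells of the E12.5 cerebral cortex, kept in EGF (20 ng/ml) and FGF (10 ng/ml) and given TGFb at 5 ng/ml, for 30 minutes before the Smad3 and JMJD3 pull-downs. There was 1 library per antibody, plus an input library with no antibody whose data were not used here. With no second library and no culture without TGFb, the values below carry no replicate error, no test was run, and no change upon TGFb can be read from them.

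Hedgehog ligands bind the receptor Ptch1 and so free the membrane protein Smo from its inhibition; the signal then reaches the zinc finger factors Gli1, Gli2 and Gli3, of which Gli3 acts largely as a repressor in the forebrain. Gli1 and Ptch1 are themselves classical targets of the pathway. Dlx, Gsx2 and Nkx2-1 proteins are homeodomain factors of the ganglionic eminences, the ventral zones that give rise to inhibitory neurons and lie below the cortex from which these cells were taken. Smad3 carries the TGFb receptor signal to DNA, and JMJD3 (Kdm6b) removes methyl groups from lysine 27 of histone H3.

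The promoter windows of 5 of the genes are shown because the lists treat them differently: Dlx1 and Dlx2 had a Smad3 peak and no JMJD3 peak within 1 kb of the start site, Gli2 and Gli3 had both, and Gsx2 had neither. Each is 300 bases long, 250 before and 50 after the start, in the direction of transcription, from RefSeq on GRCm38.p6. The peak lists are on the older build mm9, so these coordinates are not comparable with those of the peaks. For these 5 genes the span from the start to the far end of the gene was the same in both sources to within 1 bp. Capitals mark the SMAD-binding element CAGAC, read as GTCTG where it lies on the other strand.

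Dlx1, chr2:71529195-71529494, plus strand: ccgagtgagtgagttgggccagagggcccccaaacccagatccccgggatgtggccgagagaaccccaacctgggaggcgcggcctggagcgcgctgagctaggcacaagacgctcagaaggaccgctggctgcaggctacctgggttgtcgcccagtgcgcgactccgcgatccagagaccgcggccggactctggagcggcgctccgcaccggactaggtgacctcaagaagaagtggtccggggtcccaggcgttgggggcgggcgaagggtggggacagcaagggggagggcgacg

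Dlx2, chr2:71546705-71547004, minus strand: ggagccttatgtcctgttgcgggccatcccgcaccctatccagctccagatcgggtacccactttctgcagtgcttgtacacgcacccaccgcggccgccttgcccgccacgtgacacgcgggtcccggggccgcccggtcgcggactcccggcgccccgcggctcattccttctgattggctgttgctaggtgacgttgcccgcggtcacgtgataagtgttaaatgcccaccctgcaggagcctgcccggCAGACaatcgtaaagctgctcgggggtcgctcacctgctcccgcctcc

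Gsx2, chr5:75075351-75075650, plus strand: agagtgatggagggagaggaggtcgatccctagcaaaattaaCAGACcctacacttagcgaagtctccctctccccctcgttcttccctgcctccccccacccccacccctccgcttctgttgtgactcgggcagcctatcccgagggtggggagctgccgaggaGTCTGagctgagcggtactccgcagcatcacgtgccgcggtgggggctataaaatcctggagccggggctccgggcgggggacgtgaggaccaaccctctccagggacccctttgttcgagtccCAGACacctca

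Gli2, chr1:119053570-119053869, minus strand: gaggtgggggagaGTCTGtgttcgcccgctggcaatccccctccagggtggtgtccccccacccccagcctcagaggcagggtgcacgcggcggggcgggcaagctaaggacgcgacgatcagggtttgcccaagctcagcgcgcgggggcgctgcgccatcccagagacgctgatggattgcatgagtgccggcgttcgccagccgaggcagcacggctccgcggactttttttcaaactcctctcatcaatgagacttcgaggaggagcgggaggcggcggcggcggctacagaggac

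Gli3, chr13:15463473-15463772, plus strand: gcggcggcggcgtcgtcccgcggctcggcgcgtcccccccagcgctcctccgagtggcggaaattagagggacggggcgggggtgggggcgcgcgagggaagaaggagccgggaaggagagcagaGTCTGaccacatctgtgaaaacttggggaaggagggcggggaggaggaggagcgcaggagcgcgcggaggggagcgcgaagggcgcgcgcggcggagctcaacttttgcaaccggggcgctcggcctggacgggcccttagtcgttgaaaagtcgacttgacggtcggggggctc

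The CAGAC element was absent from the Dlx1 window, occurred 1 time in Dlx2 (at +2 from the start), Gli2 (at -237) and Gli3 (at -125), and occurred 3 times in Gsx2 (at -208, -85 and +39). It was present in 49.6% of the 32851 promoter windows of the table, and the gene with most copies, Gsx2, had no promoter peak. The table matched 7 of the 10 genes, with no entry for Dlx5, Dlx6 and Gli1. Entries were also held for Ptch1 (2 copies) and Nkx2-1 (1 copy). The Ptch1 start of the table differs from that of the peak files, and Nkx2-1 has no row in them. None of the 7 windows held the SMAD palindrome GTCTAGAC (0.213% of all windows), the GLI element GACCACCCA (0.253%), its core CCACCCA, which the longer element contains (9.30%), the homeodomain letters TAATTA (5.29%), the E-box CAGCTG (16.3%) or the AP-1 element TGANTCA (7.81%), on either strand. The windows of Dlx1, Dlx2, Gsx2, Gli2 and Gli3 were rich in G and C, at 69.3%, 66.3%, 63.0%, 67.3% and 71.0%, where the median window had 52.7%. They held 27, 29, 17, 28 and 39 CpG dinucleotides, against a median of 7. The Ptch1 window had 76.3% G and C and 47 CpG. That of Nkx2-1 was close to the median window in G and C, at 53.7%, with 12 CpG.

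Smad3 had promoter peaks at all 4 hedgehog genes and at 2 of the 6 ventral factors, Dlx1 and Dlx2. JMJD3 had them at Gli2, Gli3 and Ptch1 and, within 1 kb of the start, at no ventral factor. A promoter peak here is one that names the gene as closest and has its midpoint at most 1 kb from the start. Smad3 thus marked 6 of the 10 genes and JMJD3 marked 3, where 55% and 43.3% of 20953 protein-coding genes had such a peak, and 41.9% had both. The JMJD3 count depended on the window: within 2.5 kb of the start it was 5, with the ventral factor Dlx2 and Gli1 added, and within 5 kb it was 6, with Gsx2 added, where 45.6% and 48% of coding genes had such a peak. The Smad3 count was 6 and 8, against 57.5% and 60.1%. Of all coding genes with a Smad3 promoter peak, 76.2% had a JMJD3 one too, and here these were 3 of 6. Counts of this size over 10 genes lie near the background, and the genes had been picked with results of these lists in view. Of 12 neural stem cell marker genes, among them Nes, Sox2 and Hes1, 11 had a Smad3 and 10 a JMJD3 promoter peak, which does not measure their expression.

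Around the 10 genes, 138 of the 98086 Smad3 peaks either named one of them (123) or lay within 50 kb (85, of which 15 named another gene). Of the 63154 JMJD3 peaks these were 89, with 84 naming a member and 46 within 50 kb, 5 of those naming another gene. Peaks of 1 list at most 10 bp apart were joined into regions, which left 89 Smad3 and 60 JMJD3 regions at these genes, out of 70562 and 45018. The files give no height, enrichment or p-value, so the depth behind a peak is unknown, and the width of a region is the one measure of its size. Coordinates of peaks below are on mm9, distances run from the start site of the files to the midpoint of the region, and negative distances lie upstream.

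**Figure D1:**
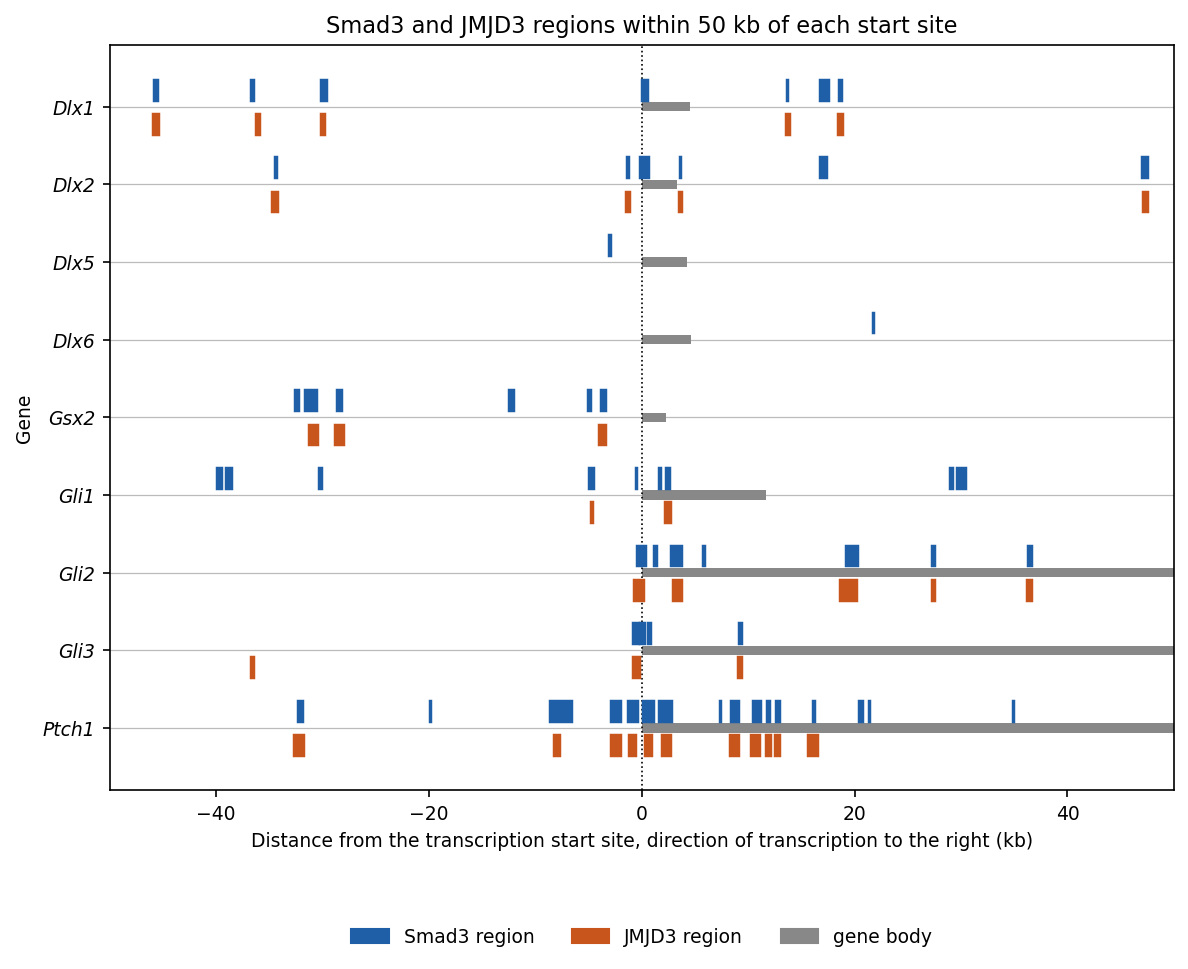
Smad3 regions (blue) and JMJD3 regions (orange) within 50 kb of the start sites of the 9 genes that the files place, with distance in kb on the horizontal axis, transcription running to the right, and the gene body in grey. A thin outline keeps the narrowest regions visible. Ptch1 carries 17 Smad3 and 11 JMJD3 regions, while Dlx5 and Dlx6 share a single Smad3 region and have no JMJD3 region.

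Dlx1 and Dlx2 are homeobox genes that are both active in the ganglionic eminences, and they face each other on chromosome 2 with start sites 17310 bp apart, so their windows overlap and share regions. The Dlx1 promoter region of Smad3 spanned chr2:71367431-71368121, from 70 bp before to 620 bp after the start. It was 691 bp wide, at percentile 76.3 of all Smad3 regions, and the nearest JMJD3 region lay 12879 bp away. At Dlx2 the Smad3 promoter region spanned chr2:71384111-71385091 and was 981 bp wide (percentile 90.6). JMJD3 came closer to this start: a JMJD3 region of 480 bp at -1320 bp began 799 bp beyond the edge of the Smad3 promoter region, and it overlapped a separate Smad3 region of 310 bp. Both genes thus had a Smad3 region over the start itself with JMJD3 next to it or absent. Over the 11524 coding genes with a Smad3 promoter peak the median region was 760 bp. The Dlx1 region was narrower than this and the Dlx2 region wider.

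Away from the starts, Smad3 and JMJD3 overlapped at most of the Dlx1 and Dlx2 sites. The Dlx1 window held 7 Smad3 regions, 4 of them overlapped by JMJD3, and 5 JMJD3 regions, 4 of them overlapped by Smad3. The Dlx2 window held 6 and 4, with 4 shared on each side. Besides the site at -1320 bp, shared regions lay past the 3′ end of Dlx2 (at +3625 bp, Smad3 171 bp and JMJD3 440 bp wide) and upstream of Dlx2 (at -34420 bp, 281 and 660 bp). On the Dlx1 side they lay upstream at -29901 bp (620 and 531 bp) and at -45691 bp (500 and 690 bp), the latter naming the neighbouring Metap1d, a mitochondrial methionine aminopeptidase gene. Between these 2 sites upstream of Dlx1, a Smad3 region of 380 bp (at -36611 bp) and a JMJD3 region of 530 bp (at -36086 bp) lay side by side without overlap.

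Dlx2 was also named by a cluster of peaks upstream of its 50 kb window. Between -52310 bp and -83614 bp, 15 Smad3 peaks in 8 regions and 9 JMJD3 peaks in 5 regions named Dlx2. All 9 JMJD3 peaks and 9 of the 15 Smad3 peaks overlapped a peak of the other list. Of all peaks more than 1 kb from the closest start, 77.3% of JMJD3 and 56.6% of Smad3 peaks did. The outermost pair was also the widest: Smad3 covered chr2:71466561-71468650, 2090 bp at percentile 99.5, and JMJD3 covered chr2:71466701-71468610, 1910 bp at percentile 98.9. Within 50 kb of Dlx2 the widest Smad3 region was that of the promoter, at 981 bp, and the widest JMJD3 region was 660 bp.

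Dlx5 and Dlx6 form a second pair of neighbouring Dlx genes, on chromosome 6, with starts 18735 bp apart. Between them they had 1 Smad3 region within 50 kb, a narrow one of 260 bp at chr6:6834941-6835200, -3003 bp from Dlx5, with no JMJD3 overlap. No JMJD3 region lay in either window, which was so for 7.29% of the 17765 start sites named in the lists. Dlx6 was named from farther away, by Smad3 regions of 330 bp at -61136 bp and 320 bp at -84001 bp, each overlapped by a JMJD3 region (570 and 470 bp). These 2 loci of the same gene family therefore stood far apart in the number of regions.

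Gsx2, the homeobox factor of the lateral ganglionic eminence, had no promoter peak in either list. Its closest site was shared: Smad3 covered chr5:75467721-75468290 (570 bp, at -3620 bp) and JMJD3 covered chr5:75467521-75468260 (740 bp). Smad3 alone was listed at -4970 bp (370 bp) and at -12310 bp (530 bp). The other shared sites in its window, at -31125 bp (Smad3 1160 bp, JMJD3 900 bp) and -28439 bp (631 and 921 bp), name Chic2, the gene next to it, as closest. In all, 3 of the 6 Smad3 regions and all 3 JMJD3 regions within 50 kb of Gsx2 were shared.

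Nkx2-1, the factor of the medial ganglionic eminence, was named by no peak of either list, and the files therefore give it no start site. In the gene order of GRCm38.p6 it lies between Mbip and Nkx2-9. On mm9 the interval between those genes, chr12:57446881-57712383 (265503 bp), held no Smad3 region and 1 JMJD3 region, whose peak named Mbip from -69569 bp. Nkx2-9 itself was named by 1 Smad3 peak, at -23740 bp, and by no JMJD3 peak. Absence from a peak list says that no peak was called there, not that no protein was bound.

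Gli1, the activator whose transcription reads out hedgehog signalling, had the narrowest promoter region of the set. Its Smad3 promoter region, chr10:126779041-126779300, was 260 bp wide (percentile 13.1), lay wholly upstream of the start (from -665 to -406 bp) and was 2500 bp from the nearest JMJD3 region. Its shared sites were at -4766 bp (Smad3 500 bp, JMJD3 320 bp) and inside the gene, where Smad3 regions of 141 bp at +2244 bp and 311 bp at +2499 bp lay under a single JMJD3 region of 690 bp. The Gli1 window was dense in Smad3, with 10 regions, but 5 of them named its neighbours Mars (2), a methionyl-tRNA synthetase gene, Inhbc (2), an inhibin subunit gene, and R3hdm2 (1), and JMJD3 overlapped none of those 5. Gli1 had the largest excess of Smad3 over JMJD3 regions of the 9 genes, 10 against 2.

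Gli2, the main activator of the pathway, had both proteins over its start. Smad3 covered chr1:120949751-120950711 (961 bp, percentile 89.9) and JMJD3 covered chr1:120950011-120951060 (1050 bp, percentile 85.9). Within 50 kb 5 of its 7 Smad3 regions and all 5 JMJD3 regions were shared, and apart from the promoter they lay inside the gene, at +3220 bp (Smad3 1050 bp, JMJD3 1010 bp), +19680 bp (1250 and 1730 bp), +27335 bp (380 and 420 bp) and +36395 bp (460 and 540 bp). The JMJD3 region of 1730 bp stood at percentile 98.2 of its list. The remaining Smad3 regions, at +1245 bp (300 bp) and +5800 bp (230 bp), were narrow. Over the whole 219560 bp of the gene, 24 of the 27 Smad3 peaks and 17 of the 22 JMJD3 peaks that named Gli2 lay inside it. Upstream of the gene the farthest site was shared, near -143849 bp (590 and 600 bp), and the farthest site inside it was a JMJD3 region without Smad3 at +149565 bp (500 bp).

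Gli3, the repressor that limits ventral fate in the dorsal forebrain, had 3 separate Smad3 promoter regions, of 651, 581 and 440 bp. The first 2 were overlapped by 1 JMJD3 region of 750 bp, chr13:15554611-15555360 (percentile 63.3). Within 50 kb Gli3 had 4 Smad3 and 3 JMJD3 regions, at percentiles 37.7 and 45.7 of start sites. The other shared site lay at +9235 bp (340 and 470 bp). JMJD3 without Smad3 was listed at -36639 bp (351 bp). Most of its named peaks were far from the start: 17 of 22 Smad3 and 17 of 20 JMJD3 peaks lay beyond 50 kb, in 12 regions each, with 13 and 14 of those peaks inside the gene, which spans 266304 bp. Of these distant peaks, 15 and 14 overlapped the other list, where 56.6% and 77.3% of all peaks over 1 kb from the closest start did. Examples were the pair at +80303 bp (830 and 980 bp), a run of 5 shared sites from +249857 to +262668 bp near the 3′ end, and the pair at -410468 bp (870 and 951 bp).

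Ptch1, the hedgehog receptor, had the densest locus of the set. Its window held 17 Smad3 regions covering 11544 bp and 11 JMJD3 regions covering 9241 bp, at percentiles 96.0 and 97.8 of start sites. Its Smad3 promoter regions were chr13:63667211-63668181 (971 bp, percentile 90.3), from -1353 to -383 bp, and a second of 910 bp, from -2 to +907 bp. Those of JMJD3 were chr13:63667321-63668150 (830 bp, percentile 71.4), from -1322 to -493 bp, and a second of 760 bp, from +168 to +927 bp. Only the Smad3 region of 910 bp thus reached the start itself. All 11 JMJD3 regions were shared with Smad3, and 12 of the 17 Smad3 regions were shared with JMJD3, 1 of them by a single base pair. The 5 Smad3 regions without JMJD3 were 210 to 530 bp wide.

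The widest Smad3 region of the whole set lay upstream of Ptch1, at chr13:63673361-63675580. It was 2220 bp wide (percentile 99.7), 6 peaks joined, at -7643 bp, and a JMJD3 region of 620 bp lay within it. Other broad pairs at Ptch1 were at -2508 bp (Smad3 1030 bp, JMJD3 1060 bp), +2167 bp (1360 and 970 bp), +8722 bp (890 and 981 bp), +10752 bp (850 and 970 bp) and -32108 bp (551 and 970 bp). At +16162 bp a Smad3 region of 270 bp lay against 960 bp of JMJD3. Beyond 50 kb Ptch1 was named by 5 Smad3 peaks and 1 JMJD3 peak, the latter at -77327 bp.

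**Figure D2:**
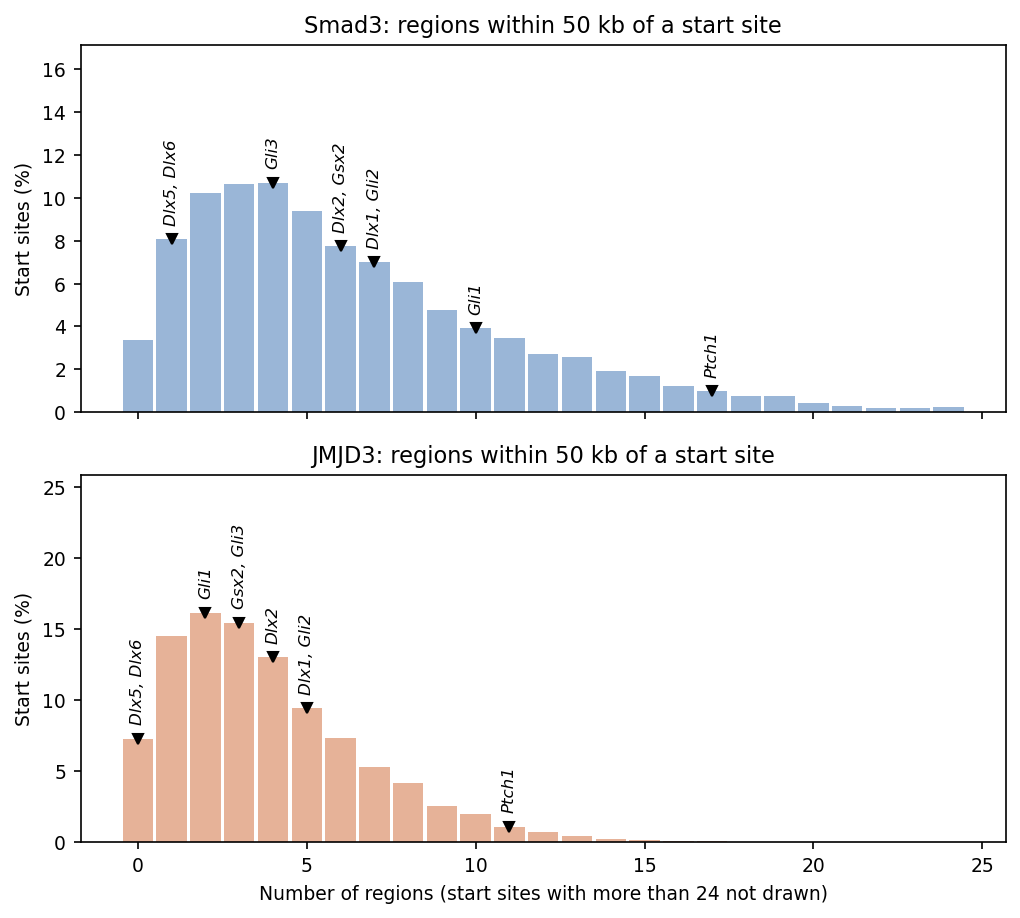
Number of Smad3 regions (upper panel) and JMJD3 regions (lower panel) within 50 kb of 17765 start sites, as the percentage of start sites with each number; triangles mark the 9 genes. Ptch1 lies in the right tail of both panels and Dlx5 and Dlx6 at the left edge, and the other genes lie between.

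Set against all start sites that the lists name, the genes ranged from sparse to dense. The median start site had 5 Smad3 regions within 50 kb (quartiles 3 and 9) and 3 JMJD3 regions (2 and 5), and the 9 genes had medians of 6 and 3. In Smad3 the order was Ptch1 (17), Gli1 (10), Dlx1 and Gli2 (7 each), Dlx2 and Gsx2 (6 each), Gli3 (4), and Dlx5 and Dlx6 (1 each). In JMJD3 it was Ptch1 (11), Dlx1 and Gli2 (5 each), Dlx2 (4), Gsx2 and Gli3 (3 each), Gli1 (2), and Dlx5 and Dlx6 (0). Gli1 changed place most between the lists, from percentile 80.0 in Smad3 to 29.9 in JMJD3. Start sites in the comparison are those named by a peak, so genes in regions without peaks are missing from it.

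**Figure D3:**
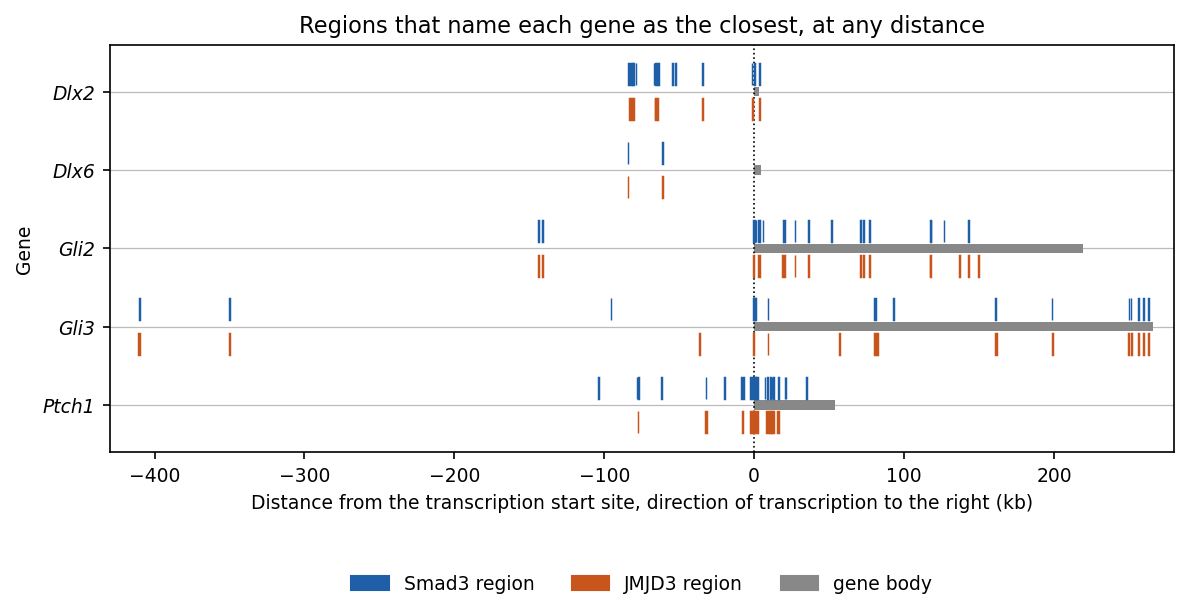
Regions that name Dlx2, Dlx6, Gli2, Gli3 or Ptch1 as the closest gene at any distance, Smad3 in blue above and JMJD3 in orange below each line, distance from the start site in kb, gene body in grey. Distant regions of Gli2 and Gli3 lie mostly inside these long genes, and those of Dlx2 lie in a cluster upstream that ends at the pair of 2090 and 1910 bp.

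Across the set, 91 of 138 Smad3 peaks, 65.9% (95% exact interval 57.4 to 73.8%), overlapped a JMJD3 peak by at least 1 bp, where 60.2% of all Smad3 peaks did. Of the JMJD3 peaks, 78 of 89, or 87.6% (79.0 to 93.7%), overlapped Smad3, where 81.4% of all JMJD3 peaks did. Both intervals include the share over the whole list. They cover counting error only, and peaks of 1 locus are not independent. Away from the starts, counting peaks more than 1 kb from the closest start, the shares were 69.9% (60.6 to 78.2%) against 56.6% for Smad3, and 87.5% (78.2 to 93.8%) against 77.3% for JMJD3. These intervals lie above the shares over all such peaks, by a narrow margin for JMJD3. As they treat peaks of 1 locus as independent they are too narrow, and no excess can be read from them. Under reciprocal overlap of 50%, the shares across the set were 37.0% and 57.3%, where all peaks had 37.4% and 58.2%. With midpoints within 200 bp they were 55.1% and 76.4%, where all peaks had 47.7% and 71.3%. Peaks away from the starts were not counted apart under these rules.

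Peaks were more numerous at the hedgehog genes than at the ventral factors. Those naming a hedgehog gene numbered 91 in Smad3, of which 68 (74.7%) overlapped JMJD3, and 64 in JMJD3, of which 55 (85.9%) overlapped Smad3. Peaks naming a ventral factor numbered 32 and 20, of which 16 (50%) and 18 (90%) overlapped. Within 50 kb the 4 hedgehog genes had 38 Smad3 and 21 JMJD3 regions, and the 5 ventral factors with a start site in the files, all but Nkx2-1, had 15 and 9. Each region was counted once, and the ventral factors cover less sequence, because the windows of Dlx1 and Dlx2, and of Dlx5 and Dlx6, overlap. In both groups some of the regions named neighbouring genes. Gli2, Gli3 and Ptch1 supplied 27, 22 and 37 of the 91 Smad3 peaks, Gli2 and Gli3 being long genes, and the difference between the groups was not tested.

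**Figure D4:**
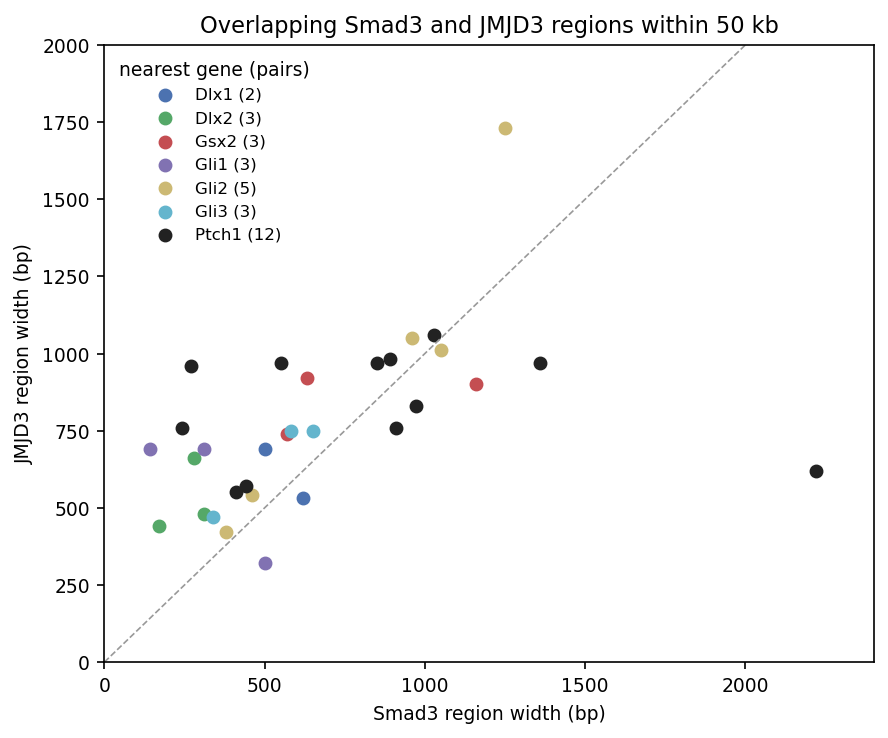
Width of each overlapping pair of regions within 50 kb of the genes, Smad3 on the horizontal and JMJD3 on the vertical axis, both in bp; colours give the nearest of the genes, and the dashed line marks equal widths. JMJD3 is the wider in 23 of 31 pairs, and the point at the far right is the Smad3 region of 2220 bp upstream of Ptch1.

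Within the windows, shared Smad3 regions were wider than unshared ones, with medians of 570 and 365 bp over 31 and 22 regions. Over all coding genes, Smad3 promoter regions were likewise wider where JMJD3 had a promoter peak too (values below). Among the 31 overlapping pairs, JMJD3 was the wider in 23 (74.2%), as in 67.1% of the 39860 pairs of the whole lists. The midpoints of a pair lay 84.5 bp apart in the median, against 85.0 bp over all pairs. At promoters, the widest Smad3 regions of Dlx1, Dlx2, Gli1, Gli2, Gli3 and Ptch1 had a median of 826 bp, and the JMJD3 regions of Gli2, Gli3 and Ptch1 a median of 830 bp. Over all coding genes with a promoter peak the medians were 760 bp for Smad3 and 860 bp for JMJD3. Over all coding genes with promoter peaks of both proteins the Smad3 region had a median of 820 bp, and with Smad3 alone 550 bp. The Dlx1 region (691 bp) and the Dlx2 region (981 bp), with Smad3 alone, were wider than the latter, and Gli1 was narrower.

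**Figure D5:**
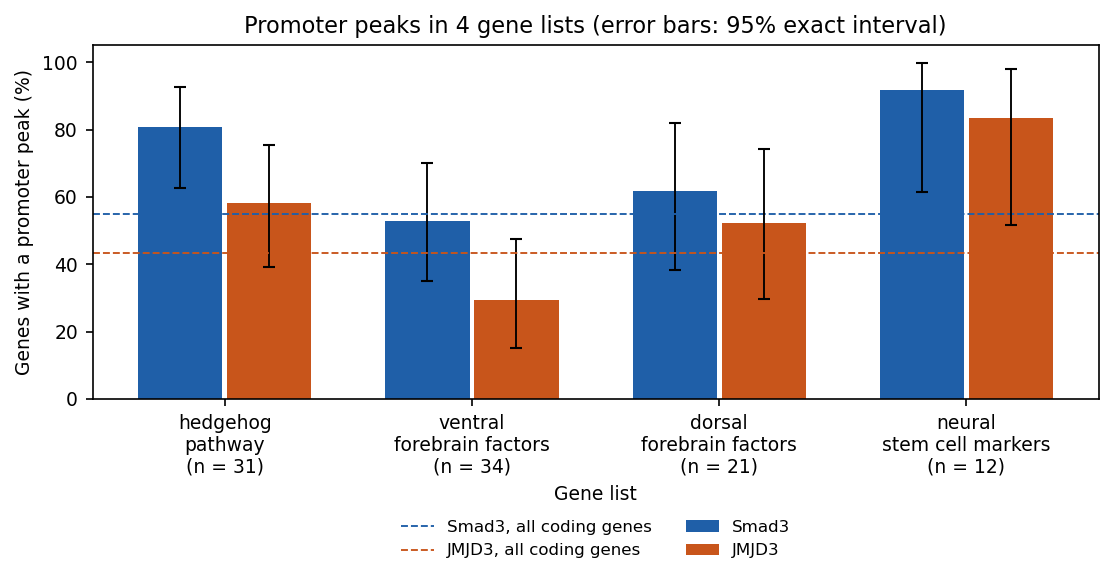
Percentage of the genes of 4 lists with a Smad3 (blue) or JMJD3 (orange) promoter peak, with 95% exact intervals for counting error; dashed lines give the percentages over all coding genes, 55% and 43.3%. With the window at 1 kb, the bar for JMJD3 is lowest in the ventral list, at 29.4%, and the bar for Smad3 is highest in the stem cell markers, at 91.7%. The JMJD3 count of the ventral list depends on the window (see text).

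Among other genes of the hedgehog pathway, Smad3 and JMJD3 were listed together at promoters of receptors, kinases and Gli regulators, and at no ligand gene. Of 31 pathway genes, Gli and Ptch1 genes included, 25 had a Smad3 promoter peak (80.6%, interval 62.5 to 92.5%) and 18 a JMJD3 peak (58.1%, 39.1 to 75.5%), each of the 18 together with Smad3. Without the 4 hedgehog genes above the counts were 21 and 15 of 27. Pairing with Smad3 was not particular to the pathway: of 9077 coding genes with a JMJD3 promoter peak, 8780 also had a Smad3 one. The kinase genes Gsk3b (Smad3 1631 bp, JMJD3 1731 bp) and Prkaca (1080 and 1200 bp), whose products phosphorylate Gli proteins, had both, as did Spop (1560 and 1560 bp), an adaptor for Gli degradation, and Gas1 (1090 and 1140 bp), a co-receptor. Smo (1300 and 530 bp), Sufu (1070 and 720 bp), which holds Gli proteins in check, and the co-receptor gene Boc (981 and 1061 bp) also had both. Hhip (450 bp), whose product like Ptch1 binds the ligand, had Smad3 alone. Neither list had a promoter peak at the ligand genes Shh, Ihh and Dhh, or at Cdon, Disp1 and Gpr161. Shh was named from farther away by 8 Smad3 and 7 JMJD3 peaks, the closest at -2555 and -9540 bp. Cdon was named by 27 and 11 peaks, the closest at -1853 and +15622 bp, and Gpr161 by 4 and 4. Ihh, Dhh and Disp1 were named by no peak of either list.

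Of 34 ventral forebrain factors, 18 had a Smad3 promoter peak (52.9%, interval 35.1 to 70.2%) and 10 a JMJD3 peak (29.4%, 15.1 to 47.5%), and 16 had neither. The 6 ventral genes described above made up 2 of the 18 and none of the 10. The low JMJD3 count held for the 1 kb window only. It was 14 of 34 within 2.5 kb and 19 of 34 within 5 kb, where 45.6% and 48% of coding genes had such a peak. The progenitor factor Olig2 (Smad3 1440 bp, JMJD3 1150 bp) and the forkhead gene Foxp2 (461 and 1000 bp) had both. Beside Dlx2, the widest Smad3 region without JMJD3 was that of Sox6 (930 bp), an SRY-box factor of interneurons. Set beside these, 21 dorsal forebrain factors had 13 Smad3 (61.9%, 38.4 to 81.9%) and 11 JMJD3 promoter peaks (52.4%, 29.8 to 74.3%). They had both at Pax6 (681 and 920 bp), Lhx2 (920 and 890 bp), Tcf7l2 (751 and 1100 bp) and Id4 (630 and 791 bp), and Smad3 alone at Otx1 (600 bp) and Neurog1 (440 bp). The dorsal JMJD3 count stayed at 11 within 2.5 and 5 kb. The intervals of the ventral and dorsal lists overlap for both proteins, and the difference between the lists was not tested.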

How the data were processed

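Each row of a deposited file is 1 peak, with its position, the closest RefSeq gene (start, end and strand) and the signed distance to that gene, per the file headers. They give no score, fold, p-value or count, so the width of a region stood in for the peak height that had been planned. The submitters' processing notes name CASAVA, Bowtie 0.12.7, MACS 1.4 and the build mm9. The sources used here do not give their roles, the thresholds or the use of the input library. Peaks were listed per library.

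Peaks of 1 list at most 10 bp apart were joined. Overlap meant at least 1 bp, and a promoter peak one within 1 kb of the start it names. Each peak names 1 gene, so a start shared by neighbours can credit either. Percentiles place ties at their middle. Width percentiles are over all regions of a list, with medians of 450 bp (Smad3) and 640 bp (JMJD3). Promoter regions had wider medians, 760 and 860 bp, so these percentiles do not rank promoters among promoters. Coding genes came from a RefSeq table of GRCm38.p6, matched on Entrez ID (16331 of 16428 named genes matched) and used for names, gene order and the background. Intervals are exact Clopper-Pearson 95% intervals. The counting steps were tested on simulated peaks.

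The members and the lists were chosen with earlier results of these data known. From the hedgehog, ventral and dorsal lists the text names up to 4 genes with both promoter peaks, ranked by the lower of their width percentiles, and up to 2 with 1 peak and the widest regions, and also genes named by peaks near a member. A few genes under this rule are not reported here. Shh, Ihh, Dhh, Cdon, Disp1, Gpr161, Smo, Sufu, Boc, Nkx2-9 and Mbip lie outside that rule and were chosen after their values were seen. Windows of 2.5 and 5 kb, other overlap rules, other joining distances and other backgrounds were tried. Python 3.11.15, pandas 2.3.3 and scipy 1.17.1 were used.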

Additional observations from a re-analysis of the deposited data

How the results depend on the processing

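With the promoter window at 2.5 kb, 5 members had a JMJD3 promoter peak (Dlx2 and Gli1 added), and at 5 kb 6 had one (Gsx2 added). The Smad3 count stayed at 6 with 2.5 kb and went to 8 with 5 kb. The share of coding genes was 57.5% and 60.1% for Smad3, and 45.6% and 48% for JMJD3, in these windows. In windows of 100 kb the members had 95 Smad3 and 59 JMJD3 regions, and without joining 85 and 46. Reciprocal overlap of 50% lowered the overlapping share to 37.0% for Smad3 and 57.3% for JMJD3 (all peaks: 37.4% and 58.2%), and midpoints within 200 bp to 55.1% and 76.4% (47.7% and 71.3%). With equal numbers of regions the JMJD3 share was 71.9% (70.5%). Median promoter width was 391 bp (Smad3) and 671 bp (JMJD3) without joining, and 971 bp for Smad3 when joined at 100 bp. Among genes named as closest to any peak the background was 75.1% and 59.1%. At 5 kb, 19 of 34 ventral-list genes had a JMJD3 peak. The windows for lists and background were chosen after seeing the data. The other 27 values under alternatives stayed within 1.5 times the count, or within the interval, of the reported value. Keeping the wider 50% of regions removed Gli1 from the Smad3 count, leaving 5. No paired analysis was possible because each antibody had 1 library and no test was run. Depth is unknown, so a missing peak sets no bound on binding.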
